A study of Homo sapiens with 8 samples.

Results

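The unfolded protein response and the integrated stress response were described here by 42 genes, given as a fixed list of symbols and split into 2 arms. The list was chosen with earlier results of these data known. The ER arm held 20 genes: the sensors of the endoplasmic reticulum (ER), the factor XBP1, and the chaperone, folding and degradation genes that XBP1 and ATF6 control. The ATF4 arm held 22 genes: ATF4 and partner factors, amino acid enzymes and transporters, and effectors of the stress response. Each of the 42 symbols matched 1 of the 23786 features measured per array (22458 features carried 1 symbol), and all 42 are accounted for below. RNA levels came from 8 arrays of the type Affymetrix Human Gene 2.0 ST, 2 in each of 4 groups. The groups were WM983B cells with shp300, WM983B cells with scrambled shRNA, SK-Mel5 cells with shp300 and SK-Mel5 cells with scrambled shRNA. WM983B and SK-Mel5 are human melanoma cell lines, and shp300 is a short hairpin RNA that targets p300, an acetyltransferase of histones that EP300 encodes. All 4 groups carried a pLKO1 lentivirus, had been transduced with polybrene at 8 μg/mL and were put in 1.5 μg/mL puromycin from 48 h after transduction, so the controls share the infection and the selection. The labels name 1 shRNA against p300 and do not state if a group's 2 arrays stand for separate cultures, so the p-values below refer to the spread among these arrays alone, which may be technical.

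Values are log2 levels, and a change is the mean of the shp300 arrays minus the mean of the scrambled arrays of the same line (n = 2 arrays each). A gene is said to have risen or fallen where limma, fitted to all features and all 8 arrays, gave a Benjamini-Hochberg adjusted p under 0.05. By that rule 10.9% of all features rose and 11.6% fell in WM983B. In SK-Mel5, 7.57% rose and 8.8% fell, and 5% and 4.46% had a higher and a lower change in WM983B than in SK-Mel5. Arrays of a group correlated at 0.9918 to 0.9955 over all features. The array medians were 4.26 to 4.28 in WM983B and 2.96 to 3.01 in SK-Mel5, so the lines were apparently normalized apart, and levels of one line are not compared with those of the other. EP300 RNA fell by 1.01 in SK-Mel5 (adjusted p = 0.00377), whereas in WM983B it read 6.92 and 7.26 on the shp300 arrays, against 7.10 and 7.22 on the scrambled arrays (change -0.07, adjusted p = 0.832). The WM983B results are therefore those of arrays labelled shp300. CREBBP, the paralog of EP300, rose in both lines (0.69 in WM983B and 0.92 in SK-Mel5, adjusted p = 0.00846 and 0.00329; the WM983B call was lost with WM983B scrambled replicate 2 left out (adjusted p = 0.0573)). All 7 measured melanocytic markers lay above the median feature in every group, while no keratinocyte or endothelial marker did, at most 1 of 5 leukocyte markers did, and 3 of 6 fibroblast markers did in all groups. The summed log2 level of the 6 fibroblast markers was 28.04 to 28.23 with shp300 and 27.66 to 27.76 with scrambled shRNA in WM983B, and 24.7 to 25.34 and 24.0 to 24.26 in SK-Mel5. Within that sum DCN rose in both lines (0.71 in WM983B and 1.33 in SK-Mel5, adjusted p = 0.02 and 0.00167), LUM fell in SK-Mel5 (-0.88, adjusted p = 0.00271), and no other fibroblast marker was called. The summed level of the 7 melanocytic markers was 63.1 to 64.78 with shp300 and 73.14 to 73.24 with scrambled shRNA in WM983B, and 64.25 to 64.84 and 65.67 to 65.86 in SK-Mel5. In WM983B 4 of the 7 fell, namely the pigment genes TYRP1 (-4.05), MLANA (-3.41) and PMEL (-0.42) and the melanocyte factor gene MITF (-1.71), with adjusted p = 1.16e-05, 3.43e-05, 0.0434 and 0.000173. The changes of TYR, S100B and SOX10 there were 0.22, 0.21 and -0.09 and were not called. In SK-Mel5 MLANA (-1.47) and TYRP1 (-0.61) fell and TYR rose (0.64; adjusted p = 0.00123, 0.0104 and 0.00645), and the other 4 were not called. The summed level of the 5 leukocyte markers was 15.55 to 15.61 with shp300 and 13.84 to 14.15 with scrambled shRNA in WM983B, where LYZ rose (1.74, adjusted p = 0.000334). The part of these markers in the results was not tested, and fewer cells of a type and less RNA per cell cannot be told apart in bulk samples.

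Unfolded proteins in the ER are sensed by 3 membrane proteins: PERK, encoded by EIF2AK3, IRE1, encoded by ERN1, and ATF6. IRE1 splices XBP1 mRNA into the form that encodes an active transcription factor, ATF6 is cleaved to release one, and both raise chaperones and the machinery that sends misfolded proteins to degradation. PERK phosphorylates eIF2, as do the kinases that sense amino acid shortage, viral RNA and heme shortage. This slows general translation while ATF4 mRNA is translated more, and ATF4 protein then raises genes of amino acid supply and the factor CHOP. Splicing, phosphorylation and protein levels are not measured by gene-level arrays.

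Each arm has a DNA element through which its factors are known to act, and promoter stretches that hold one are shown so that the 2 arms can be seen at the level of sequence. The ER stress response element, through which ATF6 and XBP1 act, was searched as CCAAT, any 9 bases and CCACG, and the C/EBP-ATF response element, through which ATF4 acts, as TGATGNAA. Both strands were searched in RefSeq promoter windows (GRCh38.p14) of 250 bases before to 50 bases after a start, which were given for 38 of the 42 genes, 20 of the ER arm and 18 of the ATF4 arm (52 windows). The first element stood in 6 of the 20 ER arm genes (30%) and in 0 of the 18 ATF4 arm genes, against 25 of all genes with a window (0.0916% of genes and 0.0769% of windows). The second stood in 5 of 18 ATF4 arm genes (27.8%) and in 1 of 20 ER arm genes, against 4.46% of genes and 3.62% of windows. None of the 38 genes searched held both, so no match of one overlapped a match of the other among them. The arms were put together from genes tied to these factors, so higher shares of their elements are no independent check of the lists. A match is a stretch of letters and not a measured binding site. Below, the stretches with an ER stress response element before the start are printed 5′ to 3′ along the gene, the match in capitals (its reverse complement where it lies on the opposite strand).
HSPA5: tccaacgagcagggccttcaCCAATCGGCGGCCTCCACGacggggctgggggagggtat
XBP1: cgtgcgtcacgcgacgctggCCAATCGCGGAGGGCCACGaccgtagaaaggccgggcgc
CALR: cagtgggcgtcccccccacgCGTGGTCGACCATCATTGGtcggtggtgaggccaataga
CRELD2: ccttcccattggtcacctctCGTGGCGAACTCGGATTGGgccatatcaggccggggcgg
PDIA6: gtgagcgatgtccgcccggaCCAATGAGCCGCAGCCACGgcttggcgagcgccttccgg
HSP90B1: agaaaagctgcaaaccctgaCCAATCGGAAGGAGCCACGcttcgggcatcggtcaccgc
HSP90B1: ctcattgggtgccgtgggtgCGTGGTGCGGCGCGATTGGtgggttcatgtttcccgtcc
These lie at chr9:125241371-125241429 (minus strand), chr22:28800583-28800641 (minus strand), chr19:12938364-12938422 (plus strand), chr22:49918534-49918592 (plus strand), chr2:10812833-10812891 (minus strand) and chr12:103930196-103930254 (plus strand) and chr12:103930301-103930359 (plus strand). HSP90B1 held 2 of them.

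The stretches with a C/EBP-ATF response element before the start follow, again with the match in capitals (its reverse complement where it lies on the opposite strand).
CHAC1: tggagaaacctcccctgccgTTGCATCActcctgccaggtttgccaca
ASNS: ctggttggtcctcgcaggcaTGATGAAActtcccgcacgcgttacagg
CEBPG: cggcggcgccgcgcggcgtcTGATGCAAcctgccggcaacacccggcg
HERPUD1: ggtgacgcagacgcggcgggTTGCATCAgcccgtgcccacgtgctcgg
They lie at chr15:40953242-40953289 (plus strand), chr7:97872449-97872496 (minus strand), chr19:33374051-33374098 (plus strand) and chr16:56931946-56931993 (plus strand). In SLC3A2 and SLC7A1 the match lay after the start, and HERPUD1 is the ER arm gene among the 6. For HSPA5 and CHAC1, a known target gene from each arm, all 250 bases before the start are given with the same matches in capitals.
HSPA5: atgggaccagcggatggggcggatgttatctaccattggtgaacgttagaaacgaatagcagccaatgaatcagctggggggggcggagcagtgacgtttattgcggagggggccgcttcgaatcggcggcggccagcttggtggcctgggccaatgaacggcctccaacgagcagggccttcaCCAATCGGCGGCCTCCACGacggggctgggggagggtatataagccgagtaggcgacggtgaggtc
CHAC1: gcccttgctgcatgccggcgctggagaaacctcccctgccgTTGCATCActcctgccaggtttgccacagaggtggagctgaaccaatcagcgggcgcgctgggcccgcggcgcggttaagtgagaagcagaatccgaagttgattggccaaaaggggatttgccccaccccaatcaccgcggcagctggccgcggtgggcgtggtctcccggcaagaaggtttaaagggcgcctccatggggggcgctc
They span chr9:125241344-125241593 (minus strand) and chr15:40953221-40953470 (plus strand).

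Of the 42 genes, 20 rose and 7 fell in WM983B, where 22.5% of all features were called in either direction, and 6 rose and 12 fell in SK-Mel5, where 16.4% were. Most ER arm genes rose with shp300 in WM983B. Of the arm's 20 genes, 14 rose and 2 fell, a rise in 70% of the list against 10.9% of all features, and the median change was 0.51, against 0.02 over all features. All 42 genes stood above the median feature in every group, at percentile 50.3 or higher. The shares over all features include dimmer features and are not matched to the 42 genes for level. In SK-Mel5, 4 of 20 rose (20%, against 7.57% of all features) and 2 fell, with a median change of 0.15 against 0.01. Those 4 rises numbered 1 without SK-Mel5 scrambled replicate 1, and 2 without any other SK-Mel5 array or either scrambled array of WM983B. The ATF4 arm divided by role. In WM983B, 6 of 22 rose and 5 fell (27.3% and 22.7%, against 10.9% and 11.6% of all features), with a median of -0.05, whose sign turned under quantile normalization of all arrays (0.01) and on leaving out WM983B scrambled replicate 2 (0.0024) or replicate 1 of WM983B shp300 (0.0012). The 5 falls numbered 1 to 3 without any 1 of the 4 WM983B arrays and 7 without either scrambled array of SK-Mel5. In SK-Mel5, 10 of 22 fell (45.5%, against 8.8% of all features) and 2 rose, with a median of -0.45. The ER arm rises in WM983B numbered 7 to 9 without any 1 of the 4 WM983B arrays and 12 without any 1 of the SK-Mel5 arrays. Of the 14, 6 were called without each array in turn, against 4.86% of all features. EIF2AK3, DNAJB9, DNAJB11, HYOU1, HERPUD1 and SYVN1 are those 6. In SK-Mel5, SYVN1 was the 1 of 4 ER arm rises called without each array in turn (2.55% of all features were), and both ER arm falls and 6 of the 10 ATF4 arm falls were (4.37% of all features). The shp300 and scrambled arrays of WM983B did not overlap for 20 of 20 ER arm genes, 17 of them higher with shp300, and for 21 of 22 ATF4 arm genes, 10 of them higher. That compares with 58.4% of all features without overlap, 30.6% higher and 27.8% lower. In SK-Mel5 the arrays did not overlap for 15 ER arm genes, 12 of them higher, and 18 ATF4 arm genes, 5 of them higher, against 51.4% of all features, 26.3% higher and 25.1% lower.

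In the ATF4 arm, the 2 control arrays of SK-Mel5 differed from each other. On the scrambled arrays of SK-Mel5, replicate 1 lay above replicate 2 for 19 of the 22 genes (86.4%, against 49.6% of all features), by a median of 0.29 against 0.00. In the other 3 groups replicate 1 lay above for 6 (WM983B shp300), 11 (WM983B scrambled) and 12 genes (SK-Mel5 shp300). In the ER arm, SK-Mel5 scrambled replicate 1 was the higher for 9 of 20 genes. Without SK-Mel5 scrambled replicate 1 the SK-Mel5 count was 6 lower and 0 higher and the median -0.19. Without SK-Mel5 scrambled replicate 2 it was 10 lower and 0 higher, with a median of -0.63, and without SK-Mel5 shp300 replicate 1 it was 7 lower and 1 higher. Without SK-Mel5 shp300 replicate 2 it was 8 lower and 0 higher. The 2 higher calls were also lost without either scrambled array of WM983B.

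**Figure D1:**
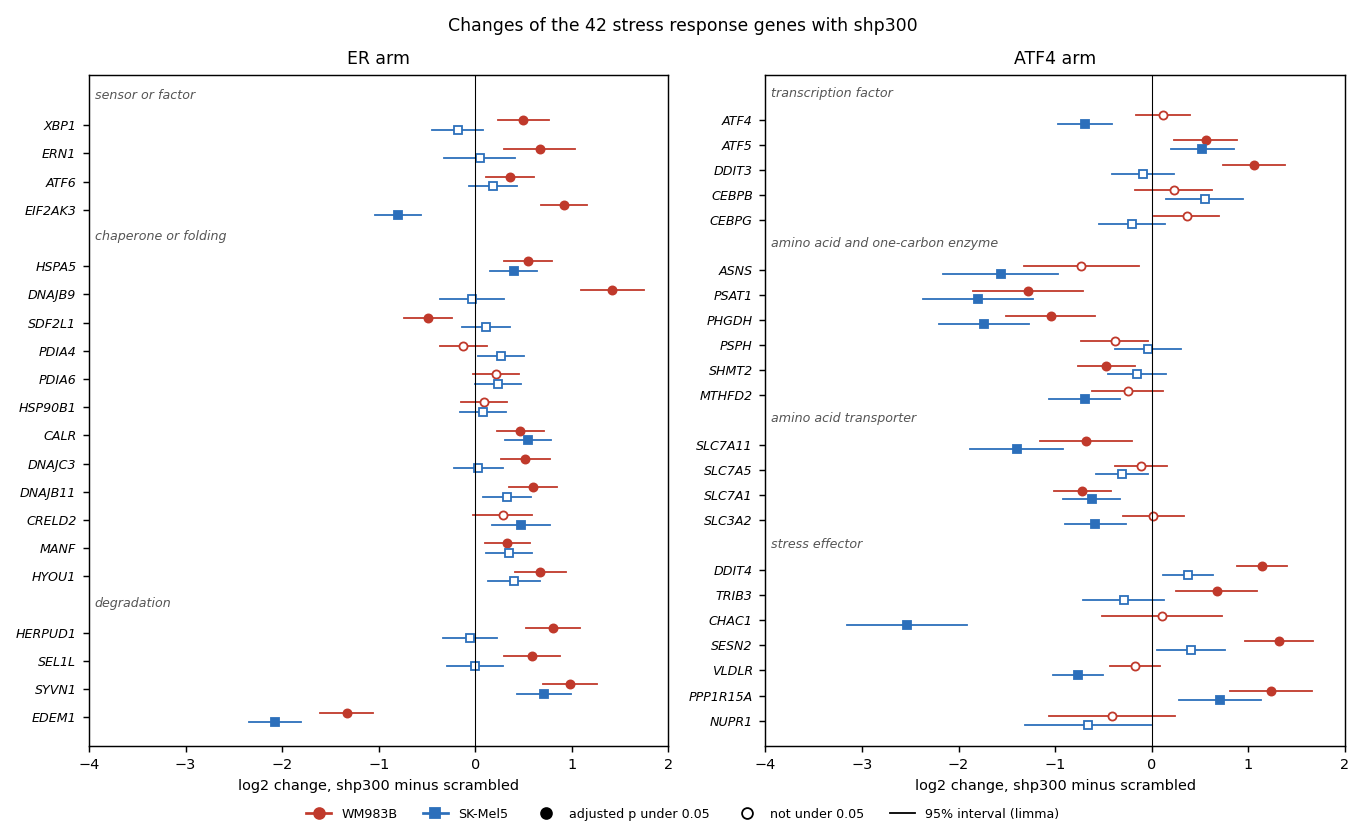
Change with shp300 (log2, shp300 minus scrambled, x axis) of the 20 ER arm genes and the 22 ATF4 arm genes in WM983B (circles) and SK-Mel5 (squares), with limma's 95% intervals, from 2 arrays per group. Filled points have an adjusted p under 0.05. In WM983B 14 of 20 ER arm genes were filled to the right of 0, and in SK-Mel5 10 of 22 ATF4 arm genes were filled to the left.

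The sensors come first. EIF2AK3, the gene of PERK, moved in opposite directions in the 2 lines. In WM983B it read 8.05 and 8.04 on the shp300 arrays, against 7.08 and 7.15 on the scrambled arrays. In SK-Mel5 it read 5.00 and 4.97 on the shp300 arrays, against 5.74 and 5.83 on the scrambled arrays. Neither pair of groups overlapped. It rose by 0.92 in WM983B (95% interval 0.69 to 1.16, adjusted p = 0.000611) and fell by 0.80 in SK-Mel5 (95% interval -1.04 to -0.56, adjusted p = 0.00169), and the changes differed by 1.72 (adjusted p = 0.00107). These 3 calls held without each array in turn. Of all features, 0.866% were called in opposite directions in the 2 lines.

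ERN1, the gene of the XBP1 splicing enzyme IRE1, read 4.89 and 5.04 on the shp300 arrays, against 4.28 and 4.31 on the scrambled arrays in WM983B and 4.11 and 3.71 against 3.99 and 3.74 in SK-Mel5. Its WM983B arrays did not overlap and its SK-Mel5 arrays did. The change was 0.67 in WM983B (adjusted p = 0.0187) and 0.04 in SK-Mel5 (interval -0.32 to 0.41). With scrambled shRNA in WM983B it stood at percentile 50.3 of all features, the lowest of the 42 genes in any group. XBP1 read 10.47 and 10.47 on the shp300 arrays, against 9.98 and 9.96 on the scrambled arrays in WM983B. In SK-Mel5 its shp300 and scrambled arrays read 7.55 and 7.63 against 7.88 and 7.67. XBP1 rose by 0.50 in WM983B (adjusted p = 0.0163), against a change of -0.18 in SK-Mel5 (adjusted p = 0.365). ATF6, the sensor that becomes a transcription factor on cleavage, read 8.18 and 8.32 on the shp300 arrays, against 7.94 and 7.85 on the scrambled arrays in WM983B and 7.43 and 7.43 against 7.24 and 7.25 in SK-Mel5. Its groups did not overlap in WM983B, where it rose by 0.36 (adjusted p = 0.0495), and the SK-Mel5 change was 0.19 (adjusted p = 0.328). The rise of XBP1 lost its call with any 1 of the 4 WM983B arrays left out (adjusted p = 0.0666 to 0.0859), that of ERN1 with any 1 of the 4 WM983B arrays left out (adjusted p = 0.0521 to 0.103), and that of ATF6 with any 1 of the 8 arrays left out (adjusted p = 0.0626 to 0.214).

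Of the 12 chaperone and folding genes, 7 rose and 1 fell in WM983B (58.3% and 8.33%, against 10.9% and 11.6% of all features, median 0.40). In SK-Mel5, 3 rose (25%, against 7.57% of all features, median 0.30). The largest change of the arm in WM983B was in DNAJB9, a cochaperone of BiP that is also known as ERdj4. In WM983B it read 6.12 and 6.04 on the shp300 arrays, against 4.86 and 4.47 on the scrambled arrays, and in SK-Mel5 4.40 and 4.31 on the shp300 arrays, against 4.42 and 4.36 on the scrambled arrays. The groups were apart in WM983B and overlapped in SK-Mel5. The rise in WM983B was 2.67-fold (log2 change 1.42, 95% interval 1.09 to 1.75, adjusted p = 0.000354), whereas the SK-Mel5 change was -0.03 (interval -0.36 to 0.29). The difference between lines was 1.45 (adjusted p = 0.00554), a call that held without each array in turn.

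HSPA5, the gene of the main ER chaperone BiP, rose in both lines. It read 10.59 and 10.72 on the shp300 arrays, against 10.12 and 10.09 on the scrambled arrays in WM983B, and 10.31 and 10.33 against 9.97 and 9.88 in SK-Mel5, with no overlap in either line. Its change was 0.55 in WM983B (adjusted p = 0.00775) and 0.40 in SK-Mel5 (adjusted p = 0.0391). CALR, the gene of the lectin chaperone calreticulin, likewise read 11.51 and 11.54 on the shp300 arrays, against 11.06 and 11.06 on the scrambled arrays in WM983B and 11.08 and 11.15 against 10.51 and 10.63 in SK-Mel5. Its groups did not overlap in either line, with rises of 0.47 in WM983B (adjusted p = 0.0148) and 0.55 in SK-Mel5 (adjusted p = 0.0103). Leaving out 1 array ended some of these calls. In WM983B that of HSPA5 was lost with WM983B scrambled replicate 2 left out (adjusted p = 0.0521) and that of CALR with any 1 of the 4 WM983B arrays left out (adjusted p = 0.0533 to 0.0763). In SK-Mel5 HSPA5 lost its call with any 1 of the 4 SK-Mel5 arrays, or WM983B scrambled replicate 1 or 2 left out (adjusted p = 0.0689 to 0.177) and CALR with SK-Mel5 scrambled replicate 1 or SK-Mel5 shp300 replicate 2 left out (adjusted p = 0.0513 to 0.0729).

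Further BiP partners rose in WM983B. HYOU1, which exchanges nucleotide on BiP, read 8.50 and 8.72 on the shp300 arrays, against 7.89 and 7.98 on the scrambled arrays in WM983B and 8.43 and 8.38 against 8.01 and 8.00 in SK-Mel5. DNAJB11, the cochaperone ERdj3, read 9.90 and 9.88 on the shp300 arrays, against 9.36 and 9.22 on the scrambled arrays in WM983B and 7.83 and 7.80 against 7.44 and 7.53 in SK-Mel5. DNAJC3, another cochaperone, which is also known to bind PERK, read 7.95 and 8.08 on the shp300 arrays, against 7.44 and 7.55 on the scrambled arrays in WM983B and 6.60 and 6.57 against 6.51 and 6.60 in SK-Mel5. All 3 had groups that did not overlap in WM983B, with rises of 0.68, 0.60 and 0.52 (adjusted p = 0.00448, 0.00552 and 0.0117). In SK-Mel5 their changes were 0.40, 0.33 and 0.03 (adjusted p = 0.053, 0.0788 and 0.908). The SK-Mel5 arrays of HYOU1 and DNAJB11 did not overlap either. HYOU1 in SK-Mel5 passed the threshold without WM983B shp300 replicate 1 or 2 (adjusted p = 0.0471 for each), and DNAJC3 in WM983B lost its call with WM983B scrambled replicate 1 or WM983B shp300 replicate 2 left out (adjusted p = 0.0672 to 0.0802).

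The remaining folding genes were split. MANF, a small ER protein that is also secreted, read 8.43 and 8.36 on the shp300 arrays, against 8.06 and 8.06 on the scrambled arrays in WM983B (adjusted p = 0.0499) and 6.76 and 6.70 against 6.37 and 6.39 in SK-Mel5 (adjusted p = 0.0529). Its changes of 0.33 and 0.35 were of like size on the 2 sides of the threshold. CRELD2, an ER protein of the disulfide pathway, read 8.25 and 8.20 against 7.82 and 8.06 with shp300 against scrambled in WM983B (change 0.28, adjusted p = 0.179). In SK-Mel5 it read 7.18 and 6.94 on the shp300 arrays, against 6.57 and 6.61 on the scrambled arrays, a rise of 0.47 (adjusted p = 0.0447). SDF2L1, a partner of ER chaperone complexes, fell in WM983B. It read 6.85 and 7.01 on the shp300 arrays, against 7.43 and 7.39 on the scrambled arrays there and 6.68 and 6.63 against 6.58 and 6.51 in SK-Mel5, changes of -0.49 (adjusted p = 0.0145) and 0.11 (adjusted p = 0.597). HSP90B1, the ER chaperone GRP94, and the disulfide isomerase genes PDIA4 and PDIA6 passed in neither line, with changes from -0.12 (PDIA4) to 0.21 (PDIA6) in WM983B and from 0.08 (HSP90B1) to 0.27 (PDIA4) in SK-Mel5. The MANF call was lost with any 1 of the 8 arrays left out (adjusted p = 0.0599 to 0.173), that of CRELD2 in SK-Mel5 with any 1 of the 4 WM983B arrays, or SK-Mel5 scrambled replicate 1 or 2 or SK-Mel5 shp300 replicate 1 left out (adjusted p = 0.0533 to 0.183), and that of SDF2L1 with WM983B scrambled replicate 1 or 2 or WM983B shp300 replicate 1 left out (adjusted p = 0.0656 to 0.0818). Of the 6 genes with the ER stress response element, HSPA5, XBP1 and CALR rose in WM983B, and CRELD2, PDIA6 and HSP90B1 did not pass there.

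Of the 4 genes of ER-associated degradation, 3 rose and 1 fell in WM983B (75% and 25%, against 10.9% and 11.6% of all features). In SK-Mel5, 1 rose and 1 fell (25% each, against 7.57% and 8.8% of all features). SYVN1 encodes the ubiquitin ligase HRD1, SEL1L its adaptor, HERPUD1 a protein that assembles the same complex, and EDEM1 a mannosidase-like protein that marks misfolded glycoproteins for it. SYVN1 read 8.06 and 8.00 on the shp300 arrays, against 7.15 and 6.95 on the scrambled arrays in WM983B, and 7.18 and 7.02 on the shp300 arrays, against 6.34 and 6.44 on the scrambled arrays in SK-Mel5. It was higher on every shp300 array than on the scrambled arrays of its line. The rises were 0.98 in WM983B (95% interval 0.70 to 1.26, adjusted p = 0.000988) and 0.71 in SK-Mel5 (95% interval 0.43 to 0.99, adjusted p = 0.00621), and both calls held without each array in turn.

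EDEM1 fell in both lines. In WM983B it read 5.74 and 5.81 on the shp300 arrays, against 7.10 and 7.11 on the scrambled arrays, and in SK-Mel5 3.98 and 4.13 on the shp300 arrays, against 6.02 and 6.23 on the scrambled arrays. Its groups were far apart in each line. The falls were 2.52-fold in WM983B (log2 change -1.33, 95% interval -1.60 to -1.06, adjusted p = 0.00022) and 4.21-fold in SK-Mel5 (log2 change -2.07, 95% interval -2.35 to -1.80, adjusted p = 7.09e-05). EDEM1 had the largest fall of the ER arm in each line, and both calls held without each array in turn. The change differed between lines by 0.74 (adjusted p = 0.0326), a call that was lost with any 1 of the 8 arrays left out (adjusted p = 0.0511 to 0.104).

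HERPUD1 read 9.52 and 9.47 on the shp300 arrays, against 8.70 and 8.67 on the scrambled arrays in WM983B, and 6.81 and 6.80 against 6.99 and 6.73 in SK-Mel5. SEL1L read 8.28 and 8.46 on the shp300 arrays, against 7.84 and 7.73 on the scrambled arrays in WM983B and 7.01 and 6.87 against 7.02 and 6.86 in SK-Mel5. Both rose in WM983B without overlap of the arrays, by 0.81 (adjusted p = 0.00233) and 0.59 (adjusted p = 0.0111), while in SK-Mel5 their changes were -0.05 (interval -0.33 to 0.22) and -0.00 (interval -0.29 to 0.28). SEL1L lost its call with WM983B scrambled replicate 2 or WM983B shp300 replicate 2 left out (adjusted p = 0.0681 to 0.0784). HERPUD1 differed between lines by 0.86 (adjusted p = 0.0203), which was lost with any 1 of the 4 WM983B arrays, or SK-Mel5 scrambled replicate 1 or SK-Mel5 shp300 replicate 2 left out (adjusted p = 0.0545 to 0.0808).

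**Figure D2:**
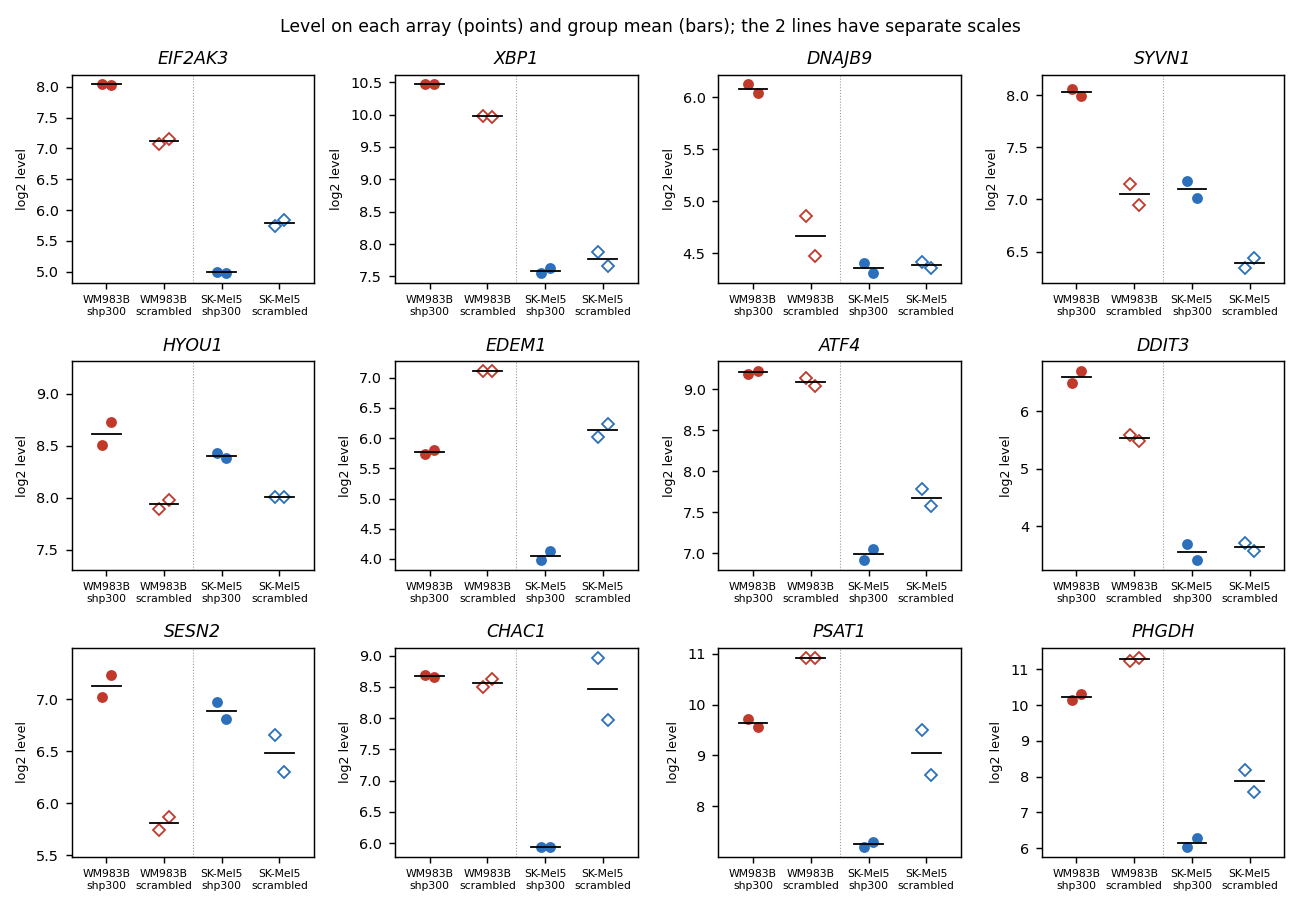
Log2 level (y axis, a separate range for each gene) on each of the 8 arrays for 12 of the 42 genes, with the group mean as a bar. Filled circles are shp300 arrays and open diamonds scrambled arrays. Levels of WM983B and SK-Mel5 are not on a common scale. EIF2AK3 was higher with shp300 in WM983B and lower in SK-Mel5, EDEM1, PSAT1 and PHGDH were lower with shp300 in both lines, and CHAC1 was lower with shp300 in SK-Mel5.

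ATF4 itself fell in SK-Mel5. It read 6.91 and 7.06 on the shp300 arrays, against 7.78 and 7.57 on the scrambled arrays, and in WM983B 9.19 and 9.22 on the shp300 arrays, against 9.14 and 9.03 on the scrambled arrays. The arrays of shp300 and scrambled did not overlap in either line, yet only the SK-Mel5 fall of 0.69 passed (95% interval -0.97 to -0.41, adjusted p = 0.00673). The WM983B change was 0.12 (interval -0.16 to 0.40, adjusted p = 0.568). The changes differed by 0.81 (adjusted p = 0.0249). The fall lost its call with SK-Mel5 scrambled replicate 1 left out (adjusted p = 0.0512), and the difference with any 1 of the 4 WM983B arrays, or SK-Mel5 scrambled replicate 1 or SK-Mel5 shp300 replicate 1 left out (adjusted p = 0.0623 to 0.098). ATF4 is regulated mainly by translation, which these arrays do not measure.

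DDIT3, the gene of CHOP, a factor linked to cell death in prolonged stress, rose in WM983B. It read 6.49 and 6.70 on the shp300 arrays, against 5.58 and 5.48 on the scrambled arrays there, and 3.69 and 3.41 on the shp300 arrays, against 3.71 and 3.57 on the scrambled arrays in SK-Mel5. In SK-Mel5 DDIT3 stood only at percentiles 55.9 (shp300) and 56.4 (scrambled) of all features, so a fall there might not be measured. The groups were apart in WM983B and overlapped in SK-Mel5. The rise was 2.08-fold (log2 change 1.06, 95% interval 0.74 to 1.38, adjusted p = 0.00133) and held without each array in turn, and the SK-Mel5 change was -0.09 (interval -0.41 to 0.23). The difference between lines was 1.15 (adjusted p = 0.0122), lost with WM983B scrambled replicate 2 or SK-Mel5 scrambled replicate 1 left out (adjusted p = 0.0516 to 0.0591). ATF5, a related factor, read 5.70 and 6.02 on the shp300 arrays, against 5.30 and 5.29 on the scrambled arrays in WM983B and 3.83 and 3.64 against 3.29 and 3.13 in SK-Mel5. It rose in both lines, by 0.56 (adjusted p = 0.024) and 0.53 (adjusted p = 0.0391). The WM983B call was lost with WM983B scrambled replicate 1 or 2 or WM983B shp300 replicate 2 left out (adjusted p = 0.102 to 0.125) and the SK-Mel5 call with any 1 of the 4 SK-Mel5 arrays, or WM983B scrambled replicate 1 or 2 left out (adjusted p = 0.0648 to 0.186). CEBPB and CEBPG, which pair with ATF4, did not pass, with changes of 0.23 and 0.36 in WM983B and 0.55 and -0.21 in SK-Mel5. CEBPB passed in SK-Mel5 without SK-Mel5 shp300 replicate 1 (adjusted p = 0.0102).

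Of the 3 genes of serine synthesis, PHGDH and PSAT1 fell in both lines. PHGDH encodes the first enzyme of the pathway from glycolysis to serine, PSAT1 the second and PSPH the last. PHGDH read 10.15 and 10.31 on the shp300 arrays, against 11.23 and 11.32 on the scrambled arrays in WM983B. In SK-Mel5 it read 6.03 and 6.27 on the shp300 arrays, against 8.20 and 7.58 on the scrambled arrays. PSAT1 read 9.72 and 9.56 on the shp300 arrays, against 10.92 and 10.92 on the scrambled arrays in WM983B and 7.20 and 7.30 on the shp300 arrays, against 9.49 and 8.61 on the scrambled arrays in SK-Mel5. For both genes every shp300 array lay below the scrambled arrays of its line. PHGDH fell 2.06-fold in WM983B (log2 change -1.04, 95% interval -1.51 to -0.58, adjusted p = 0.00737) and 3.33-fold in SK-Mel5 (log2 change -1.74, 95% interval -2.20 to -1.27, adjusted p = 0.00107). PSAT1 fell 2.43-fold in WM983B (log2 change -1.28, 95% interval -1.85 to -0.71, adjusted p = 0.00762) and 3.48-fold in SK-Mel5 (log2 change -1.80, 95% interval -2.37 to -1.23, adjusted p = 0.00231). The SK-Mel5 falls held without each array in turn. In WM983B the PHGDH call was lost with WM983B scrambled replicate 2 or WM983B shp300 replicate 1 left out (adjusted p = 0.0524 to 0.0551) and the PSAT1 call with WM983B scrambled replicate 2 or WM983B shp300 replicate 2 left out (adjusted p = 0.0503 to 0.0534). PSPH did not pass in either line, with changes of -0.38 in WM983B (interval -0.73 to -0.04, adjusted p = 0.112) and -0.04 in SK-Mel5 (interval -0.38 to 0.31). In WM983B it passed without SK-Mel5 scrambled replicate 1 or 2 (adjusted p = 0.0464 for each).

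All 6 enzyme genes of the arm had negative changes in both lines. Of the 6, 3 fell in WM983B (50%, against 11.6% of all features) and 4 in SK-Mel5 (66.7%, against 8.8%). ASNS, the enzyme that makes asparagine, read 6.81 and 6.70 on the shp300 arrays, against 7.41 and 7.56 on the scrambled arrays in WM983B, and 6.35 and 6.24 on the shp300 arrays, against 8.32 and 7.40 on the scrambled arrays in SK-Mel5. Its groups did not overlap in either line. It fell by 1.56 in SK-Mel5 (95% interval -2.16 to -0.97, adjusted p = 0.00523), a call that held without each array in turn but not with only the 4 SK-Mel5 arrays fitted (adjusted p = 0.0659). In WM983B its change of -0.73 did not pass (adjusted p = 0.0839), although it did without SK-Mel5 scrambled replicate 1 or 2 (adjusted p = 0.00696 for each). MTHFD2 and SHMT2 encode mitochondrial enzymes of the folate one-carbon pathway. MTHFD2 read 7.79 and 7.77 on the shp300 arrays, against 8.71 and 8.23 on the scrambled arrays in SK-Mel5 and 8.88 and 8.96 against 9.22 and 9.13 in WM983B. SHMT2 read 8.83 and 8.98 on the shp300 arrays, against 9.38 and 9.37 on the scrambled arrays in WM983B and 7.93 and 7.82 against 8.17 and 7.89 in SK-Mel5. MTHFD2 fell by 0.69 in SK-Mel5 (adjusted p = 0.0214), with a WM983B change of -0.25 (adjusted p = 0.345). SHMT2 fell by 0.47 in WM983B (adjusted p = 0.0346), with a SK-Mel5 change of -0.15 (adjusted p = 0.532). Their calls were lost with SK-Mel5 scrambled replicate 1, SK-Mel5 shp300 replicate 1 or 2 left out (adjusted p = 0.0698 to 0.0964) for MTHFD2 and with any 1 of the 4 WM983B arrays left out (adjusted p = 0.066 to 0.159) for SHMT2. None of the 6 enzymes differed between lines by the test of the difference (adjusted p from 0.188 for PHGDH to 0.431 for PSAT1, 0 of 6 called and 1 of 6 at an unadjusted p under 0.05), although without SK-Mel5 scrambled replicate 2 ASNS, PSAT1 and PHGDH did (adjusted p = 0.0203, 0.0385 and 0.0492).

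Of the 4 amino acid transporters, 2 fell in WM983B (50%, against 11.6% of all features) and 3 in SK-Mel5 (75%, against 8.8%). SLC7A11, the cystine importer, read 8.11 and 8.40 on the shp300 arrays, against 8.98 and 8.89 on the scrambled arrays in WM983B. In SK-Mel5 it read 5.51 and 5.27 on the shp300 arrays, against 7.10 and 6.49 on the scrambled arrays. The shp300 arrays lay below the scrambled arrays in both lines. It fell by 0.68 in WM983B (95% interval -1.16 to -0.20, adjusted p = 0.0499) and by 1.40 in SK-Mel5 (95% interval -1.88 to -0.92, adjusted p = 0.00317). SLC7A1, an importer of arginine and other cationic amino acids, read 6.56 and 6.64 on the shp300 arrays, against 7.32 and 7.31 on the scrambled arrays in WM983B and 6.55 and 6.62 against 7.36 and 7.06 in SK-Mel5. It fell by 0.72 (adjusted p = 0.00512) and 0.62 (adjusted p = 0.0131), again with no overlap. SLC3A2, the heavy chain that SLC7A11 and SLC7A5 need at the membrane, read 8.86 and 8.89 on the shp300 arrays, against 9.56 and 9.36 on the scrambled arrays in SK-Mel5 and 10.08 and 10.38 against 10.16 and 10.27 in WM983B. It fell by 0.58 in SK-Mel5 (adjusted p = 0.0233), and its WM983B change was 0.02 (interval -0.30 to 0.33). SLC7A5, the leucine importer, passed in neither line (-0.11 in WM983B and -0.31 in SK-Mel5). The fall of SLC7A1 in WM983B and that of SLC7A11 in SK-Mel5 held without each array in turn. The WM983B call of SLC7A11 was lost with any 1 of the 4 WM983B arrays, or SK-Mel5 shp300 replicate 1 or 2 left out (adjusted p = 0.0585 to 0.231), the SK-Mel5 call of SLC7A1 with SK-Mel5 scrambled replicate 1 or SK-Mel5 shp300 replicate 1 left out (adjusted p = 0.0595 to 0.0834), and that of SLC3A2 with any 1 of the 4 SK-Mel5 arrays left out (adjusted p = 0.0517 to 0.14).

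Of the 7 stress effectors, 4 rose (57.1%, against 10.9% of all features) and none fell in WM983B (median 0.67). In SK-Mel5, 1 rose and 2 fell (14.3% and 28.6%, against 7.57% and 8.8% of all features, median -0.29). DDIT4 and SESN2 encode inhibitors of mTORC1 signalling, and PPP1R15A encodes GADD34, which directs the removal of phosphate from eIF2. SESN2 read 7.02 and 7.23 on the shp300 arrays, against 5.75 and 5.87 on the scrambled arrays in WM983B and 6.97 and 6.80 against 6.66 and 6.30 in SK-Mel5. DDIT4 read 9.04 and 9.15 on the shp300 arrays, against 7.87 and 8.04 on the scrambled arrays in WM983B and 8.46 and 8.50 against 8.13 and 8.07 in SK-Mel5. All shp300 arrays lay above the scrambled arrays of their line for both genes. SESN2 rose 2.49-fold in WM983B (log2 change 1.32, 95% interval 0.96 to 1.67, adjusted p = 0.000735), and its SK-Mel5 change was 0.41 (adjusted p = 0.121). DDIT4 rose 2.20-fold in WM983B (log2 change 1.14, 95% interval 0.88 to 1.40, adjusted p = 0.000338), and its SK-Mel5 change was 0.38 (adjusted p = 0.0565). Both changes were larger in WM983B, by 0.91 for SESN2 (adjusted p = 0.0386, lost with any 1 of the 4 WM983B arrays, or SK-Mel5 scrambled replicate 1 or SK-Mel5 shp300 replicate 1 or 2 left out (adjusted p = 0.0571 to 0.128)) and by 0.76 for DDIT4 (adjusted p = 0.0246, lost with any 1 of the 4 SK-Mel5 arrays, or WM983B scrambled replicate 1 or 2 or WM983B shp300 replicate 2 left out (adjusted p = 0.055 to 0.0903)). PPP1R15A read 7.76 and 8.28 on the shp300 arrays, against 6.85 and 6.72 on the scrambled arrays in WM983B and 5.73 and 5.76 against 4.89 and 5.18 in SK-Mel5. It rose in both lines, by 1.24 in WM983B (95% interval 0.81 to 1.66, adjusted p = 0.00229) and 0.71 in SK-Mel5 (adjusted p = 0.0344, lost with any 1 of the 4 SK-Mel5 arrays, or WM983B scrambled replicate 1 or 2 left out (adjusted p = 0.0609 to 0.189)). The 3 rises in WM983B held without each array in turn. SESN2 and DDIT4 are also known as targets of p53.

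CHAC1, which breaks down glutathione, had the largest change of the 42 genes. In SK-Mel5 it read 5.94 and 5.94 on the shp300 arrays, against 8.97 and 7.98 on the scrambled arrays. In WM983B it read 8.68 and 8.66 on the shp300 arrays, against 8.50 and 8.63 on the scrambled arrays. The 2 scrambled SK-Mel5 arrays were far apart, and both lay well above the shp300 arrays. The fall in SK-Mel5 was 5.78-fold (log2 change -2.53, 95% interval -3.15 to -1.91, adjusted p = 0.000747), against a change of 0.11 in WM983B (interval -0.52 to 0.73, adjusted p = 0.849). The difference of 2.64 (adjusted p = 0.00649) and the SK-Mel5 fall were called without each array in turn, with the fall between -3.02 and -2.04. TRIB3, a pseudokinase that restrains ATF4 activity, read 9.74 and 9.79 on the shp300 arrays, against 9.04 and 9.14 on the scrambled arrays in WM983B and 7.29 and 7.12 against 7.79 and 7.21 in SK-Mel5. It rose by 0.67 in WM983B (adjusted p = 0.0327, lost with any 1 of the 4 WM983B arrays left out (adjusted p = 0.105 to 0.155)), and the SK-Mel5 change was -0.29 (adjusted p = 0.37). The difference between lines, 0.96, had an adjusted p of 0.0573 and passed without SK-Mel5 scrambled replicate 2 (adjusted p = 0.0207). VLDLR, a lipoprotein receptor gene that ATF4 is known to raise, read 5.32 and 5.29 on the shp300 arrays, against 6.05 and 6.08 on the scrambled arrays in SK-Mel5 and 7.06 and 6.88 against 7.20 and 7.09 in WM983B. It fell by 0.76 in SK-Mel5 (adjusted p = 0.003), a call that held without each array in turn, and changed by -0.17 in WM983B (adjusted p = 0.345). NUPR1, a stress-induced chromatin protein, did not pass (-0.41 and -0.66), although it did in SK-Mel5 without SK-Mel5 scrambled replicate 2 (adjusted p = 0.0128).

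The 2 lines were then set side by side. Both lines called 5 of the 42 genes higher, namely HSPA5, CALR, SYVN1, ATF5 and PPP1R15A, and 5 lower, namely EDEM1, PHGDH, PSAT1, SLC7A11 and SLC7A1. Together that is 23.8% of the genes, against 7.95% of all features called in the same direction in both lines. Among them only SYVN1 and EDEM1 kept both calls without each array in turn. The rest lost the call of at least 1 line with some array left out, as given above. EIF2AK3 was called in opposite directions. Across genes, the changes in WM983B and SK-Mel5 correlated at r = 0.67 (Spearman 0.59) over the 42 genes, at 0.52 (Spearman -0.04) over the ER arm, at 0.69 (0.71) over the ATF4 arm and at 0.45 (0.34) over all features. The lines' arrays were apparently normalized apart, and genes are not independent replicates. Of the 42 genes, 10 had a higher change in WM983B than in SK-Mel5 by the test of the difference (23.8%, against 5% of all features) and 1, SDF2L1, a lower one (2.38%, against 4.46%). The 10 are DNAJB9, XBP1, HERPUD1, EDEM1, EIF2AK3, ATF4, DDIT3, DDIT4, CHAC1 and SESN2, of which DNAJB9, EIF2AK3 and CHAC1 were called without each array in turn (1.74% of all features were, in this direction, and 1.34% in the other, where SDF2L1 was not). Over all features the difference was called in either direction for 9.46%. The 10 became 4 without WM983B scrambled replicate 1, 3 without WM983B scrambled replicate 2, 5 without WM983B shp300 replicate 1 and 4 without WM983B shp300 replicate 2. Without the SK-Mel5 arrays they numbered 3 (scrambled replicate 1), 11 (scrambled replicate 2), 5 (shp300 replicate 1) and 5 (shp300 replicate 2).

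**Figure D3:**
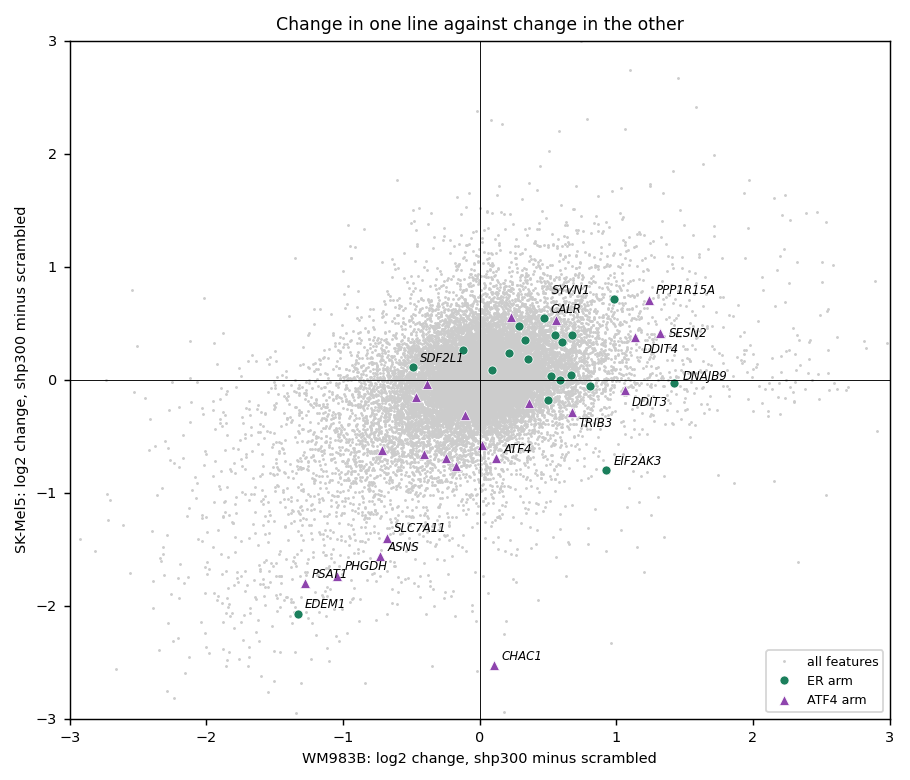
Change with shp300 in WM983B (x axis) against that in SK-Mel5 (y axis), both log2, for the ER arm (20 circles), the ATF4 arm (22 triangles) and all features (small grey dots; 36 features past 3 log2 units in either line lie outside the axes). Most ER arm genes lie right of 0, amino acid genes lie at the lower left with EDEM1, CHAC1 lies far below 0 for SK-Mel5, and EIF2AK3 lies at the lower right.

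Other genes of the same pathways were taken from lists that do not hold the 42. These lists too were chosen with earlier results of these data known, so they are not an independent check. Over all features, 10.9% rose and 11.6% fell in WM983B, and 7.57% rose and 8.8% fell in SK-Mel5. The shares of all features whose call held without each array in turn were smaller. They were 4.86% for rises and 6.03% for falls in WM983B, and 2.55% and 4.37% in SK-Mel5. Calls said to have held in the lists below are to be read beside these shares. Of 22 measured genes among other ER folding and degradation genes, 10 rose and 2 fell in WM983B (45.5% and 9.09%), and 4 rose and 1 fell in SK-Mel5 (18.2% and 4.55%), with medians of 0.33 and 0.16. Without each array in turn, 4 of the 10 rises (EDEM3, HSPA13, PDIA5 and SIL1) and 1 of the 2 falls (WFS1) held in WM983B, and 3 of the 4 rises and the 1 fall in SK-Mel5. In WM983B the smallest p-values were those of WFS1, an ER membrane protein gene (-1.48, adjusted p = 0.00013), the disulfide isomerase gene PDIA5 (1.06, adjusted p = 0.000461), SIL1, which exchanges nucleotide on BiP (0.74, adjusted p = 0.00174), and HSPA13 (0.72, adjusted p = 0.00238). In SK-Mel5 they were those of EDEM3, a relative of EDEM1 (1.40, adjusted p = 0.000586), the translocon gene SEC61A1 (0.99, adjusted p = 0.000665), CREB3L2 (1.37, adjusted p = 0.000923) and WFS1 (-0.78, adjusted p = 0.00336). EDEM3 also rose in WM983B (0.92, adjusted p = 0.00268), so it rose in both lines where EDEM1 fell.

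Of 11 measured other sensors and regulators, 4 rose and 4 fell in WM983B (36.4% each, against 10.9% and 11.6% of all features). In SK-Mel5, 4 rose and 2 fell (36.4% and 18.2%, against 7.57% and 8.8% of all features). Without each array in turn, 3 rises and 1 fall held in WM983B, and 1 rise and 2 falls in SK-Mel5. ATF6B, a paralog of ATF6, rose in both lines (0.73 and 0.55, adjusted p = 0.00203 and 0.00995), as did EIF2AK4, the gene of the amino acid sensor kinase GCN2 (0.65 and 0.63, adjusted p = 0.00448 and 0.00742). MBTPS2, a protease that cleaves ATF6, fell in both (-0.77 and -1.17, adjusted p = 0.00375 and 0.000819), and MBTPS1, the protease that cleaves ATF6 first, rose in both (0.78 and 0.44, adjusted p = 0.00304 and 0.0492). The SK-Mel5 call of MBTPS1 held in 1 of the 8 fits that left out an array (adjusted p up to 0.248). PPP1R15B, the constitutive counterpart of PPP1R15A, fell in SK-Mel5 by 1.33 (adjusted p = 0.000198) and rose in WM983B (0.42, adjusted p = 0.0236). The PPP1R15B call in WM983B was lost with WM983B scrambled replicate 1 or 2 or WM983B shp300 replicate 2 left out (adjusted p = 0.0905 to 0.112). The ATF6B call in SK-Mel5 was lost with SK-Mel5 scrambled replicate 2 left out (adjusted p = 0.0688).

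Among tRNA synthetase genes, no gene rose in either line. Of the 12 that ATF4 is known to raise, 2 fell in WM983B (median -0.20). That is 16.7%, near the 11.6% of all features that fell there. In SK-Mel5, 5 fell (41.7%, against 8.8% of all features, median -0.38), and all 12 changes were negative. MARS1 (-0.94), AARS1 (-0.96), CARS1 (-0.87) and IARS1 (-0.53) led in SK-Mel5 (adjusted p = 0.00288, 0.00438, 0.0104 and 0.0229), and YARS1 (-0.53) and NARS1 (-0.37) in WM983B (adjusted p = 0.0344 and 0.0455). YARS1 fell in SK-Mel5 too (-0.56, adjusted p = 0.0357, lost with WM983B shp300 replicate 1 or 2, SK-Mel5 scrambled replicate 1, SK-Mel5 shp300 replicate 1 or 2 left out (adjusted p = 0.0589 to 0.199)). The CARS1 call was lost with SK-Mel5 shp300 replicate 1 left out (adjusted p = 0.0523) and that of IARS1 with SK-Mel5 scrambled replicate 1, SK-Mel5 shp300 replicate 1 or 2 left out (adjusted p = 0.0674 to 0.142). Those in WM983B were lost with any 1 of the 4 WM983B arrays left out (adjusted p = 0.052 to 0.198) for YARS1 and with any 1 of the 8 arrays left out (adjusted p = 0.058 to 0.203) for NARS1. Of 7 other cytosolic synthetases, 3 fell in WM983B (42.9%, median -0.23) and 2 in SK-Mel5 (28.6%, median 0.07). They were KARS1 (-0.90 and -0.73), FARSB (-0.88 and -0.72) and, in WM983B, VARS1 (-0.73). Their adjusted p ran from 0.000705 for KARS1 in WM983B to 0.00931 for FARSB in SK-Mel5. The FARSB call in SK-Mel5 was lost with SK-Mel5 scrambled replicate 1 left out (adjusted p = 0.0585).

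Of 12 other amino acid genes, 3 rose and 2 fell in WM983B (25% and 16.7%, against 10.9% and 11.6% of all features). In SK-Mel5, 1 rose and 5 fell (8.33% and 41.7%, against 7.57% and 8.8% of all features). Without each array in turn, 3 rises and 1 fall held in WM983B, and 1 rise and 2 falls in SK-Mel5. The glycine carrier gene SLC6A9 (1.44), the glutamine carrier gene SLC38A2 (0.81) and ALDH18A1, of proline synthesis (0.76), rose in WM983B (adjusted p = 0.000416, 0.00117 and 0.00328), and the neutral amino acid carrier gene SLC1A4 fell (-0.92, adjusted p = 0.000889). In SK-Mel5 ALDH18A1 rose as well (1.31, adjusted p = 0.000395), while the transaminase gene GOT1 (-1.13) and the transsulfuration genes CBS (-1.31) and CTH (-0.67) fell (adjusted p = 0.000429, 0.00722 and 0.00841). The CTH call in SK-Mel5 was lost with SK-Mel5 scrambled replicate 1 left out (adjusted p = 0.0594), and that of CBS with only the 4 SK-Mel5 arrays fitted (adjusted p = 0.0668). CTH also fell in WM983B (-0.46, adjusted p = 0.0309, lost with any 1 of the 4 WM983B arrays left out (adjusted p = 0.0575 to 0.15)), and SLC1A4 in SK-Mel5 (-0.46, adjusted p = 0.0281, lost with SK-Mel5 scrambled replicate 1 or 2 or SK-Mel5 shp300 replicate 1 left out (adjusted p = 0.109 to 0.122)). Of 11 other stress genes downstream of ATF4 and CHOP, 3 rose and 1 fell in WM983B, and 4 rose and 3 fell in SK-Mel5, of which 3 rises and 0 falls held without each array in turn in WM983B, and 2 rises and 1 fall in SK-Mel5. As shares of these 11, the rises and falls were 27.3% and 9.09% in WM983B and 36.4% and 27.3% in SK-Mel5. Whether ATF4, CHOP or another factor lay behind these changes was not tested. The death receptor gene TNFRSF10B (0.97 in WM983B and 1.10 in SK-Mel5, adjusted p = 0.000392 and 0.000343) and GADD45A (0.68 and 0.90, adjusted p = 0.00454 and 0.00175) rose in both lines. KLHL24 fell in both (-0.73 and -1.41, adjusted p = 0.0175 and 0.00133). VEGFA, the angiogenic factor gene, rose in WM983B (0.98, adjusted p = 0.000887) and fell in SK-Mel5 (-0.66, adjusted p = 0.00803). The KLHL24 call in WM983B was lost with any 1 of the 4 WM983B arrays left out (adjusted p = 0.0505 to 0.0998) and the VEGFA call in SK-Mel5 with SK-Mel5 scrambled replicate 2 left out (adjusted p = 0.0559).

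**Figure D4:**
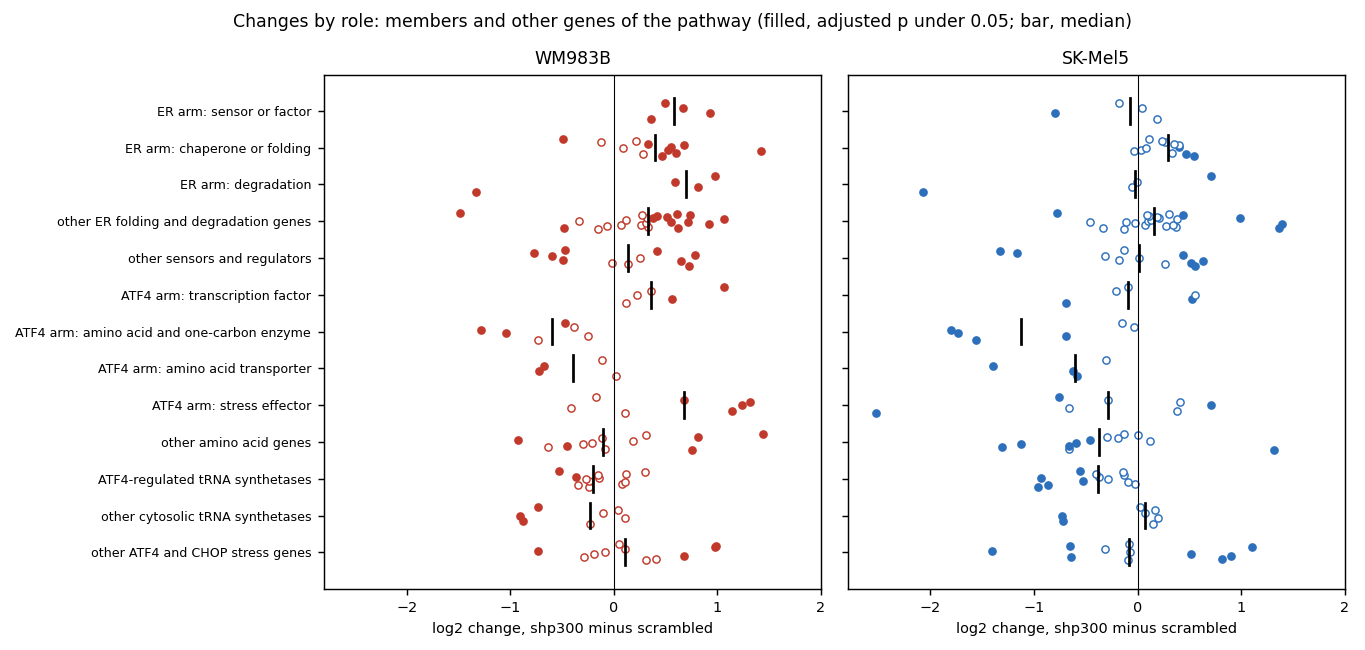
Change with shp300 (log2, x axis) by role, for the 42 genes (rows named ER arm and ATF4 arm) and for the other lists of the pathways, in WM983B (left) and SK-Mel5 (right). Each point is a gene, filled where the adjusted p is under 0.05, and the bar is the median of the row. The ER arm rows other than EDEM1 and SDF2L1 lie mainly right of 0 in WM983B, and the rows of amino acid enzymes and transporters lie left of 0 in both lines, with SLC3A2 in WM983B at 0.02.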

How the data were processed

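Gene-level expression was measured on 8 arrays, 2 in each of 4 groups. The deposited values are log2 expression, made by the authors with RMA (affy 1.36.1 in R 2.15.1), per the submitters' processing notes. RMA corrects background, normalizes arrays together and summarises probes. A genome build was not given in the sources used here. Groups and replicate numbers follow the labels. The array medians differ between the lines and hardly within them, so levels were compared within a line. Symbols came from the platform annotation. limma 3.58.1 in R 4.3.3 was fitted to all 23786 features with the 4 groups as terms and no filter, and 3 contrasts were taken: the shp300 change in each line and the difference of the 2 changes. Tests were two-sided, with Benjamini-Hochberg adjustment over all features at 0.05. The fit was tested on simulated data. The number of arrays limits the precision. The 42 genes and all lists were chosen with earlier results of these data known. From each other list, the up to 4 called genes with the smallest p per line were named, besides EP300, CREBBP and MITF. The alternatives were other normalizations, centring, array weights, variance models, filters and thresholds, a replicate block, and leaving out each array. Symbols without a matched feature were not analysed here. The replicate numbers were checked as pairs: deviations from group means correlated at 0.003 in WM983B and 0.0277 in SK-Mel5.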

Additional observations from a re-analysis of the deposited data

Results flagged for a closer look

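The shp300 change differed between WM983B and SK-Mel5, by the test of the difference itself, for 11 of the 42 genes. It also differed for 12 further genes among EP300, CREBBP and the named genes of the other pathway lists. Over all features the difference was called for 9.46%. The named genes were picked among called genes by the smallest p in a line, so their count cannot be set against that share. Cell type markers are outside that count. Of the 7 melanocytic markers, 3 had a lower change in WM983B (lowest -3.45), and of the 5 leukocyte markers 1 had a higher one (2.01). Each value below is the WM983B change minus the SK-Mel5 change on the log2 scale, with limma's adjusted p.

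In the ER arm the difference was 1.72 for EIF2AK3 (adjusted p = 0.00107), 1.45 for DNAJB9 (0.00554), 0.86 for HERPUD1 (0.0203), 0.74 for EDEM1 (0.0326), 0.68 for XBP1 (0.0383) and -0.60 for SDF2L1 (0.0496). EDEM1 fell in both lines and fell less in WM983B. In the ATF4 arm it was 2.64 for CHAC1 (0.00649), 1.15 for DDIT3 (0.0122), 0.91 for SESN2 (0.0386), 0.81 for ATF4 (0.0249) and 0.76 for DDIT4 (0.0246). The calls of EIF2AK3, DNAJB9 and CHAC1 held without each array in turn. The calls of XBP1, SDF2L1 and EDEM1 were each lost without any 1 of the 8 arrays.

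Among the named genes of the other pathway lists the difference was 1.74 for PPP1R15B (adjusted p = 0.00107), 1.64 for VEGFA (0.00224) and 1.57 for SLC6A9 (0.00488). It was 1.10 for SLC38A2 (0.00484), 0.83 for GOT1 (0.015) and 0.83 for HSPA13 (0.0154). It was 0.80 for MARS1 (0.0399), 0.69 for PDIA5 (0.0351), -0.67 for SEC61A1 (0.0283), -0.71 for WFS1 (0.0355) and -0.76 for VARS1 (0.0335). Outside the named genes, ERO1B (1.01) and GDF15 (-0.71) of these lists were called too. The calls of PPP1R15B, VEGFA, SLC6A9 and SLC38A2 held without each array in turn, and those of WFS1 and SEC61A1 were lost without any 1 of the 8. PPP1R15B and VEGFA rose in WM983B and fell in SK-Mel5, as EIF2AK3 did. In SK-Mel5 the mean level of SLC6A9 was 2.59 with shp300 and 2.72 with scrambled shRNA. That is below the array medians of 2.96 to 3.01 there, so a fall of SLC6A9 in SK-Mel5 might not be measured. Each other call in both groups of genes was lost with at least 1 array left out.

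For EP300, the gene that the shRNA targets, the difference was 0.95 (adjusted p = 0.0357), lost with WM983B scrambled replicate 1 or 2, WM983B shp300 replicate 2, SK-Mel5 scrambled replicate 1, SK-Mel5 shp300 replicate 1 or 2 left out (adjusted p = 0.0672 to 0.119).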

How the results depend on the processing

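No result changed direction past the threshold under any alternative. In WM983B, ER arm genes called higher numbered 14, or 8 at 1.5-fold or more, and those called lower 2, or 1 at 1.5-fold. In SK-Mel5, ER arm genes called higher numbered 4, or 7 at an adjusted p under 0.1, 8 without dim features, 9 with the trended and robust variance model, and 1 both at 1.5-fold and with only the arrays of the line. ATF4 arm genes called higher numbered 2, or 4 at 0.1, without dim features and with the trended model, 1 at 1.5-fold and 0 with only the arrays of the line. Those called lower numbered 10, or 6 with only the arrays of the line, where ASNS, MTHFD2, SLC7A1 and SLC3A2 were not called. For the difference, ATF4 arm genes called higher numbered 5, or 8 without dim features and with the trended model. The 1 ER arm gene with a lower change, SDF2L1, became 0 with centring or array weights and 2 with the trended model. Centring also ended the WM983B calls of MANF and ATF6. Quantile normalization of all 8 arrays ended the calls of SLC7A11 in WM983B and HSPA5 in SK-Mel5 (adjusted p = 0.0533 and 0.0633). It also ended that of EDEM1 for the difference (adjusted p = 0.0705). With it MANF and HYOU1 passed in SK-Mel5 (adjusted p = 0.0384 and 0.0463). The cause was not tested.

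Leaving out 1 array gave 7 to 12 ER arm genes higher and 1 to 2 lower in WM983B, and 4 to 6 ATF4 arm genes higher and 1 to 7 lower. In SK-Mel5 it gave 1 to 4 and 2 lower in the ER arm, and 0 to 2 higher and 6 to 10 lower in the ATF4 arm. The difference gave 2 to 3 higher and 0 lower in the ER arm, and 1 to 8 higher in the ATF4 arm. A line's arm with 1 array left takes its spread from the other groups.

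Shared replicate numbers do not pair these samples. With the replicate number as a block, 12 calls of the 42 genes were lost: the SK-Mel5 counts were 2 (ER arm higher) and 0 (ATF4 arm higher), and those of the difference 2 and 0 (ER arm higher and lower) and 3 (ATF4 arm higher).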
